A study of Homo sapiens with 19 samples.

Results

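G3BP1 and G3BP2 are paralogous RNA-binding proteins, and the RNA each of them touched was compared in SH-SY5Y cells, a human neuroblastoma line, to ask which genes either paralog prefers. The comparison used 8 of the 19 libraries of the series, namely the eCLIP libraries of both proteins. They were joined into 4 pairs, each holding 1 G3BP2 and 1 G3BP1 library of the same treatment and replicate number, and every library was scaled to the same total. A gene was tested when 4 or more libraries had a value above 0, which was the case for 18898 of the 19942 protein-coding genes in the table. The 4 groups of 2 libraries were G3BP1 in untreated cells, G3BP2 in untreated cells, and either protein in cells treated with sodium arsenite (AS). All were made from unmodified SH-SY5Y cells with antibodies against the endogenous proteins. The labels of the eCLIP samples give 50 mM AS for 1 h, on untreated samples too, whereas an AS-treated RNA-seq sample of the series is labelled 500 μM for 1 h, the dose that the methods also name. Nothing in the labels says whether replicates were separate cultures, so p-values measure only the spread between these libraries, which may be technical.

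G3BP1 and G3BP2 are encoded by separate genes and share an amino-terminal NTF2-like domain, through which they form dimers, and carboxy-terminal RNA recognition and RGG regions. They are core scaffold proteins of stress granules (SGs), the cytoplasmic condensates of untranslated mRNA and protein that form when translation initiation stalls, for example under AS, and cells that lack both proteins do not form them under this stress. In eCLIP, UV light crosslinks proteins to the RNA they touch, the protein is precipitated and the attached RNA fragments are sequenced, so that a value per gene counts fragments or sites rather than the amount of RNA in the cell.

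The letters that the study associates with both paralogs were looked up in the annotated span of every tested gene, because they show what kind of sequence the comparison is about. The palindromic motif of 9 letters occurs in a pair of forms, CCAGCCUGG and CCAGGCUGG, which are reverse complements of each other, so its copies on the gene's strand and on the opposite strand are equally many. At least 1 copy lay in 89.1% of the 18872 annotated tested genes, with 0.423 copies per kb of gene. A second motif of the study, of 13 letters, lay on the gene's strand in 77.4% of genes with 0.138 copies per kb and on the opposite strand with 0.169 copies per kb. GGAU, known as a G3BP2 motif, lay in 99.7% of genes with 3.43 copies per kb. Many copies of the palindrome in gene spans share their surroundings. The same 9 bases preceded 26.3% of copies of the first form, and 1 run of 9 bases followed 28.8% of copies of the second. A match in these letters is a description of the gene and was not tested as a binding site.

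The deposited eCLIP values are log10(n + 1), where n is a whole number. The total of n per library lay between 4268911 and 26179736. Replicate 1 libraries held at least 22678678 and replicate 2 libraries at most 10678043. In each pair the total was larger with G3BP2, by 1.09 and 1.57 times in replicates 1 and 2 of untreated cells and by 1.15 and 1.80 times under AS. All differences below are relative to equal totals, which put the median log2 difference of all tested genes at 0.021, against 0.46 for unscaled n, where TRPV4, CCAR1 and SEC31A among the leading genes take the other sign. Between 936 and 2591 genes were listed at 0 per library. A unit of n was not an independent fragment. In genes with 1 annotated transcript, between 71.8% and 82.9% of the values of n from 1 to 20 were even numbers. The median scaled n per kb of gene was 1.88 in genes with 1 annotated transcript and 18.6 in genes with over 20, while per kb of the summed spans of their transcripts it was 1.88 and 1.66. In the siCtrl library, an RNA-seq library of SH-SY5Y cells with control siRNA, 9 of 10 genes that mark noradrenergic neuroblastoma were above 10 TPM, a transcript abundance scaled to a fixed total per library, with TH at 0.304 TPM, as were 4 of 10 mesenchymal markers, with TWIST1 at 468 TPM and PRRX1 at 0.

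No gene was shown to prefer either paralog. With limma and Benjamini-Hochberg adjustment over the 4 pairs, 0 of 18898 genes (0%) differed in either direction, and the smallest adjusted p was 0.780. At an unadjusted p of 0.05, 362 genes (1.92%) were higher with G3BP2 and 506 (2.68%) with G3BP1, together 4.59% of the genes tested. The difference had the same sign in all 4 pairs for 1294 genes (6.85%) toward G3BP2 and 1572 (8.32%) toward G3BP1. Simulated data held the same number of genes, with a spread per gene that was equal in all libraries. In them this test called 0 of 200 genes that differed by 0.5 on the log2 scale. It called 60 of 200 that differed by 1 and 135 of 200 that differed by 2. The real pairs spread unequally, so these counts may not hold for them. The median half-width of the 95% interval was 0.49 on the log2 scale. The interval of the difference lay within 2-fold in both directions for 12985 genes (68.7%) and within 1.5-fold for 8013 (42.4%). For 99.7% of the 2877 genes with a mean scaled n over 1000, a preference beyond 2-fold was outside the interval. That share was 89.5% of the genes between 100 and 1000, 47.2% of those between 20 and 100 and 3.02% of those under 20. For most genes under 20, the interval reached a preference of 2-fold or more.

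The pairs also gave little common order of genes. Across the 16152 genes with a mean scaled n of at least 20, Pearson's r between the differences of any 2 pairs lay between -0.0004 and 0.087. It lay between 0.054 and 0.205 across the 2877 genes over 1000, where both values over 0.1 came from pairs with the same replicate number. Pairs of replicate 1 were tighter than those of replicate 2. Among genes over 1000, the SD of the log2 difference was 0.123 and 0.122 in the replicate 1 pairs of untreated and AS-treated cells and 0.278 and 0.302 in the replicate 2 pairs, whose libraries were shallower.

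**Figure D1:**
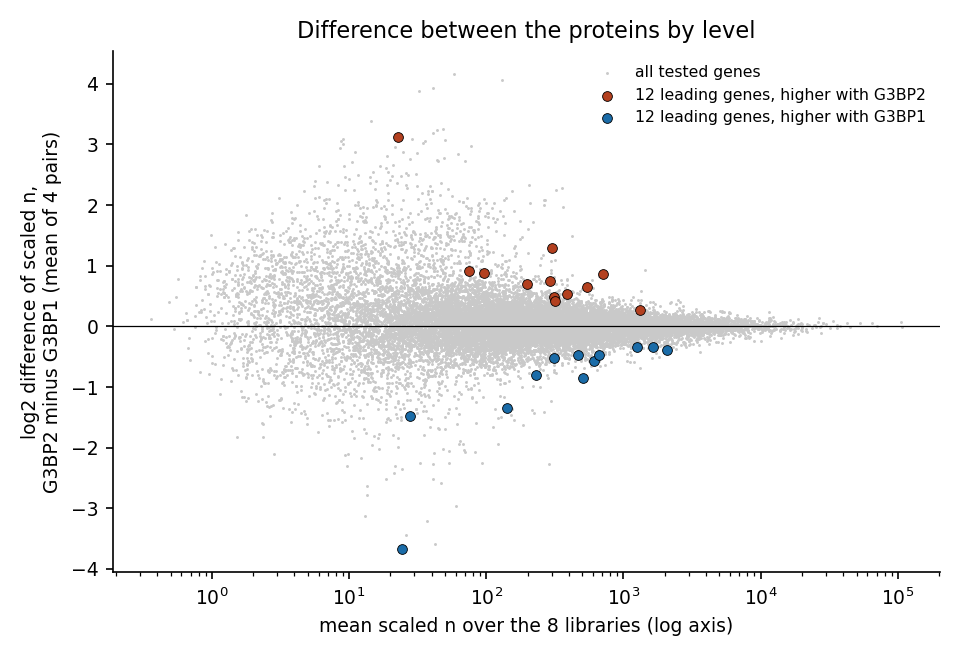
Each grey point is 1 of the 18898 tested genes, with the mean scaled n over the 8 libraries on a log x axis and the log2 difference of scaled n, G3BP2 minus G3BP1, averaged over 4 pairs on the y axis. The coloured points are the 12 leading genes in each direction, at adjusted p = 0.780 by limma, and the spread of all genes narrows as n grows.

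The genes named as leading are the 12 in each direction with the smallest unadjusted p among genes with the same sign in all 4 pairs and a mean scaled n of at least 20, since none passed the adjusted threshold. All 24 had an adjusted p of 0.780 by limma. With 4 pairs, the exact permutation test that swaps the proteins within pairs cannot go below p = 0.13, which is the value of each of these genes. They describe where the largest and steadiest differences lay, and none is a call.

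Toward G3BP1, the leading set held 3 genes of the cytosolic ribosome, the machinery that translates mRNA. RPS20, a protein of the small subunit, had a scaled n of 172, 311, 200 and 495 with G3BP1 and of 107, 193, 110 and 247 with G3BP2, in the order of untreated replicates 1 and 2 and AS replicates 1 and 2 that is kept throughout. Each G3BP1 library was above its partner, although the ranges of the proteins overlapped, and the log2 difference was -0.81 (SE 0.138, 95% interval -1.14 to -0.48). RPLP0, which forms the base of the large subunit's stalk, had 150, 178, 187 and 264 with G3BP1 and 30.6, 61.5, 93.2 and 170 with G3BP2, a log2 difference of -1.35 (SE 0.289). Among the pairs its log2 difference ranged from -2.26 to -0.64. RPS2 (chromosome 16, 1962058 to 1964841, minus strand) was listed at 0 in 3 of 4 G3BP2 libraries and had 13.1, 46.4, 20.8 and 73.8 with G3BP1. Its remaining G3BP2 value was 41.1, and as the G3BP1 values rest on an n of 24 to 36 per library, the fitted difference of -3.67 depends on the pseudocount. Ribosomal protein genes have many processed pseudogenes with near-identical sequence, so that reads could be split between copies.

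The other leading genes toward G3BP1 had higher n. APBB1 encodes Fe65, an adaptor that binds the cytoplasmic tail of the amyloid precursor protein, and had 586, 385, 649 and 947 with G3BP1 against 331, 154, 480 and 539 with G3BP2. The log2 difference was -0.85 (SE 0.155), or 1.80-fold more with G3BP1. MPV17, a protein of the inner mitochondrial membrane, had the smallest p of all genes, 0.00059 before adjustment by limma, with 657, 518, 798 and 947 against 489, 345, 515 and 593. Its values with the proteins overlapped only between 518 and 593, and G3BP1 was higher in 4 of 4 pairs by 1.49-fold. POLD1, the catalytic subunit of DNA polymerase delta, had 510, 785, 679 and 1113 against 380, 574, 515 and 729.
The steadiest difference was that of TRPV4, a calcium-permeable cation channel, whose log2 differences were -0.33, -0.32, -0.33 and -0.41 in the 4 pairs. SEC31A, part of the outer COPII coat of vesicles that leave the endoplasmic reticulum, differed by -0.39 (SE 0.0796), and CCAR1, a coactivator of transcription, by -0.34 (SE 0.0686). BTF3L4, a relative of the nascent-chain-binding factor BTF3, differed by -0.48 and LRRC34, a leucine-rich repeat protein, by -0.52. In BTF3L4 and LRRC34 all G3BP1 libraries were above all G3BP2 libraries. Their lowest G3BP1 values were 504 and 318 and their highest G3BP2 values 446 and 281. In CCAR1 these values were 1652 and 1629, a gap smaller than the rounding step of the deposited values, so overlap cannot be judged. How many of all tested genes have libraries apart in this way is not given here. GTF2H1, a subunit of the transcription and repair factor TFIIH, had an n of at most 57 and differed by -1.48 (SE 0.32). The annotated spans of POLD1, SEC31A and LRRC34 overlap other protein-coding genes, whose fragments may be counted with theirs.

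Toward G3BP2, the leading set held 5 genes that were listed at 0 TPM in the siCtrl library. So were 2731 of the 16152 genes with a mean scaled n of at least 20. RASGRP4, a guanine nucleotide exchange factor for Ras known from mast cells, was listed at 0 TPM in siCtrl cells and had a scaled n of 547, 506, 649 and 335 with G3BP1 and of 794, 1173, 798 and 877 with G3BP2. All G3BP2 libraries were above all G3BP1 libraries, and the log2 difference was 0.86 (SE 0.196). Its span overlaps FAM98C. ILDR1, an immunoglobulin-like receptor of tricellular junctions, likewise had no overlap, with 244, 205, 303 and 141 against 354, 397, 356 and 341 (log2 difference 0.75, SE 0.192). MKX, a homeobox gene of tendon, had no overlap either and was steadier, with 293, 230, 296 and 264 against 380, 307, 390 and 373 and log2 differences between 0.37 and 0.50. PDGFB, a platelet-derived growth factor chain, differed by 0.91 (SE 0.244), and both MKX and PDGFB were listed at 0 TPM too. STPG3, a sperm-tail repeat gene, was at 0 TPM in siCtrl cells and at 18.7 TPM in the library of SG cores. It was listed at 0 in both replicate 2 libraries of G3BP1 and had 34.4 and 20.5 in their partners, and the fitted difference of 3.12 depends on the pseudocount.
GRAMD1C, a sterol transfer protein of the endoplasmic reticulum, had the smallest difference of the set, 0.27 (SE 0.0674), at a mean scaled n of 1209 with G3BP1 and 1451 with G3BP2. It was at 0.219 TPM. Its G3BP1 libraries lay at 1310 or below and its G3BP2 libraries at 1316 or above. That gap is smaller than the rounding step of the deposited values, so whether they overlap cannot be told. The share of all tested genes without overlap is not given here. TMEM218, a ciliary membrane protein, ranged from 12.3 to 357 with G3BP1 and from 61.6 to 560 with G3BP2, so its ranges overlapped widely. ZNF155, a KRAB zinc finger gene, differed by 0.69 (SE 0.178). ZNG1E, 1 of several near-identical copies of a zinc-binding GTPase gene, differed by 0.64, and reads could be split between its copies. Above 10 TPM were 3 genes of the set. PPP1CC, a catalytic subunit of protein phosphatase 1, was at 63.8 TPM and had 7.66, 50.3, 132 and 79.9 with G3BP1 against 14.0, 87.3, 214 and 190 with G3BP2, in every pair more with G3BP2 while the libraries of 1 protein differed by far more. SIRT3, a mitochondrial deacetylase, and RSRC2, an arginine and serine rich protein, were at 13.7 TPM each and differed by 0.53 and 0.49. The span of SIRT3 overlaps RIC8A.

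**Figure D2:**
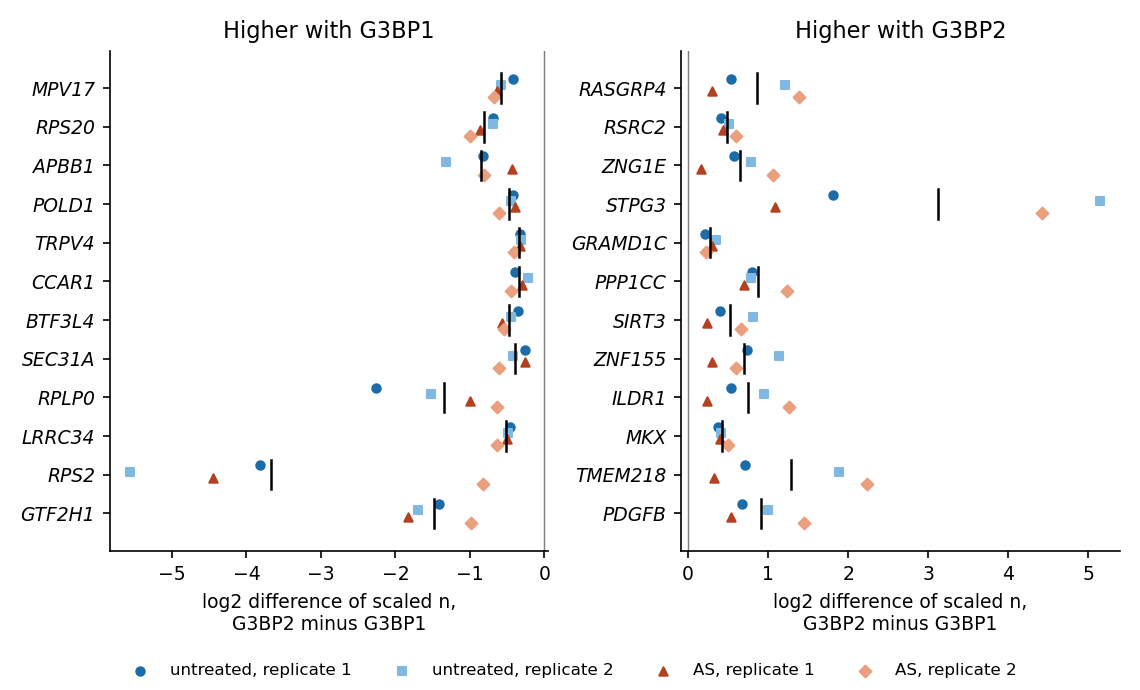
The x axis gives the log2 difference of scaled n, G3BP2 minus G3BP1, for the 12 leading genes in each direction, with 1 point for each of the 4 pairs and a bar at their mean. All points of a panel lie on 1 side of 0 by the rule that chose the genes, and TRPV4 and MKX vary least among their pairs.

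The difference between the proteins followed the level of the RNA in siCtrl cells, a measure from another library than the eCLIP. That is 1 library of the knockdown RNA-seq, which the methods describe as poly-A. A gene at 0 TPM in it may still have RNA in the eCLIP cells. Among the leading genes, 8 of the 12 toward G3BP1 were above 10 TPM in siCtrl cells and 0 were listed at 0 TPM, with a median of 52.9 TPM. Toward G3BP2, 3 of 12 were above 10 TPM and 5 were listed at 0, with a median of 2.19 TPM. All genes tested had a median of 3.80 TPM. Of the 16152 genes with a mean scaled n of at least 20, 2731 were listed at 0 TPM. Another 5296 lay between 10 and 100 TPM and 917 above that. Over genes with a mean scaled n of at least 20, the median of the mean log2 difference was 0.084 in the 2731 genes listed at 0 TPM, 0.063 in the 2791 genes up to 1 TPM, -0.0065 in the 4417 between 1 and 10 TPM, -0.028 in the 5296 between 10 and 100 TPM and -0.12 in the 917 over 100 TPM. Genes with the same sign in all 4 pairs changed with the class in the same order. Of the genes at 0 TPM, 12.2% were higher with G3BP2 and 3.19% with G3BP1 in every pair, and of the genes over 100 TPM 2.51% and 14.3%.

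Each pair showed this order by itself. The median of genes over 100 TPM minus that of genes at 0 TPM was -0.16 and -0.25 on the log2 scale in the pairs of untreated cells and -0.10 and -0.20 in those under AS, over all genes tested. The mean of the 4 gaps was -0.18 (SD 0.0638), with an exact permutation p of 0.13, the smallest that 4 pairs allow. With genes of a mean scaled n of at least 20 alone, the mean gap was -0.21 and all 4 pairs were below 0. Within each of the 5 quintiles of genes by summed transcript span, the gap between genes over 10 TPM and genes at 0 TPM was below 0 in 20 of 20 pair values, with means between -0.18 and -0.091. Within quintiles by GC content it was also below 0 in 20 of 20, with means between -0.19 and -0.11. Taken as shares, genes over 10 TPM held between 27.6% and 29.2% of the n of G3BP1 libraries and between 26.5% and 28.3% of that of G3BP2 libraries, a mean difference of -0.870 percentage points that was below 0 in 4 of 4 pairs. Genes at 0 TPM held 0.461 points more with G3BP2. The n itself was not highest in the genes with most RNA. The 4534 genes at 0 TPM held 10.7% to 11.3% of it with G3BP1 and 11.2% to 11.7% with G3BP2. The 1169 genes over 100 TPM held 1.77% to 2.26% and 1.65% to 1.99%. Input libraries were not used, so how far n in genes at 0 TPM reflects bound RNA was not tested. The values are rounded to 2 decimals on the log10 scale, a step of 0.033 on the log2 scale, so that class medians differ by a few such steps. The larger total of n in the G3BP2 library moved with this order in every pair, and its part was not tested. In bulk samples fewer cells with an RNA and less RNA per cell cannot be told apart.

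**Figure D3:**
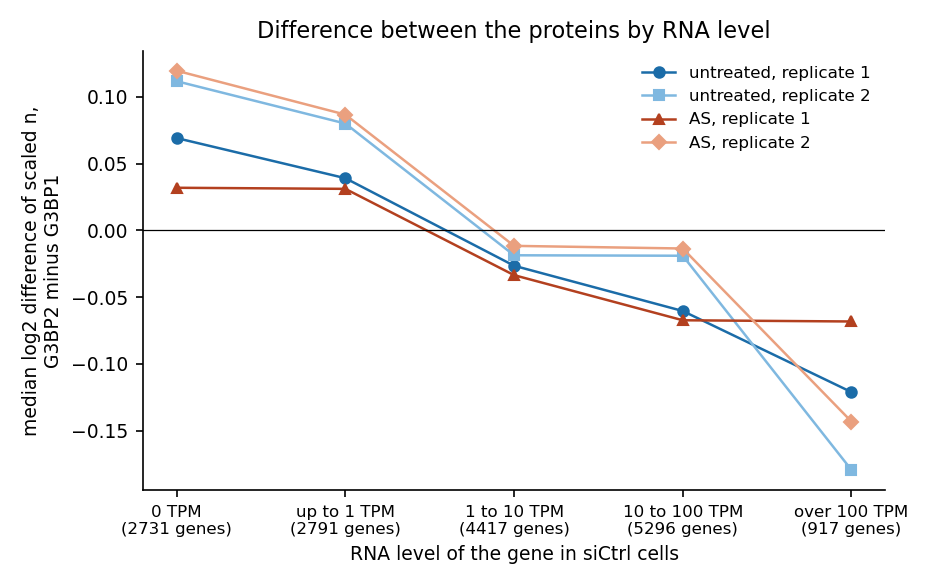
The x axis holds 5 classes of genes by TPM in the siCtrl library, with the number of genes at a mean scaled n of at least 20, and the y axis the median log2 difference of scaled n, G3BP2 minus G3BP1, with 1 line per pair. All 4 lines lie above 0 in genes listed at 0 TPM and below 0 in genes over 100 TPM.

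Genes rich in the palindrome also leaned toward G3BP1, in 4 of 4 pairs only in the classes of RNA level above 1 TPM. Among 11268 genes with a span of at least 20 kb and a mean scaled n of at least 20, the quintile with the most copies per kb had a median log2 difference of -0.055 and the quintile with the fewest 0.027. In the highest quintile 16% of genes were higher with G3BP1 in all 4 pairs and 3.9% with G3BP2, and in the lowest quintile 5.86% and 10.6%. The gap between the quintiles was below 0 in all 4 pairs, with a mean of -0.083 (SD 0.0201, exact permutation p = 0.13, the smallest possible). In genes over 10 TPM the gap was -0.078 and below 0 in 4 of 4 pairs, and in genes between 1 and 10 TPM it was -0.056 and below 0 in 4 of 4. In genes at 0 TPM, however, the mean gap was 0.036, with 2 pairs on either side of 0, and in genes up to 1 TPM it was 0.018 with 2 on either side. The motif of 13 letters gave the same order, with mean gaps of -0.093 over 10 TPM, -0.051 between 1 and 10 TPM, 0.025 up to 1 TPM and 0.035 at 0 TPM. Those are copies on the gene's strand. Across the 11268 genes, Spearman's rho between the mean difference and copies per kb was -0.141 on the gene's strand and -0.171 on the opposite strand, below 0 in all 4 pairs for both. The difference of the gap between classes of RNA level was not tested. Whether the palindrome and the motif of 13 letters vary together across genes was not tested either, so they may not be separate observations.
For GGAU the gap between highest and lowest quintile was 0.020 (SD 0.063) and differed in sign between replicates, at -0.034 and -0.035 in the replicate 1 pairs and 0.082 and 0.067 in the replicate 2 pairs. GC content split the replicates in the same way. Spearman's rho across genes between the difference and the GC content of the gene was -0.125 and -0.122 in the replicate 1 pairs and 0.156 and 0.130 in the replicate 2 pairs, over 16141 genes that are not independent of each other. For summed transcript span rho was 0.053 in both replicate 1 pairs and -0.042 and -0.035 in the replicate 2 pairs. Over all genes tested, the longest quintile by summed span had a median difference of 0.0094 and the shortest, at a median scaled n of 14.1, one of 0.12.

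**Figure D4:**
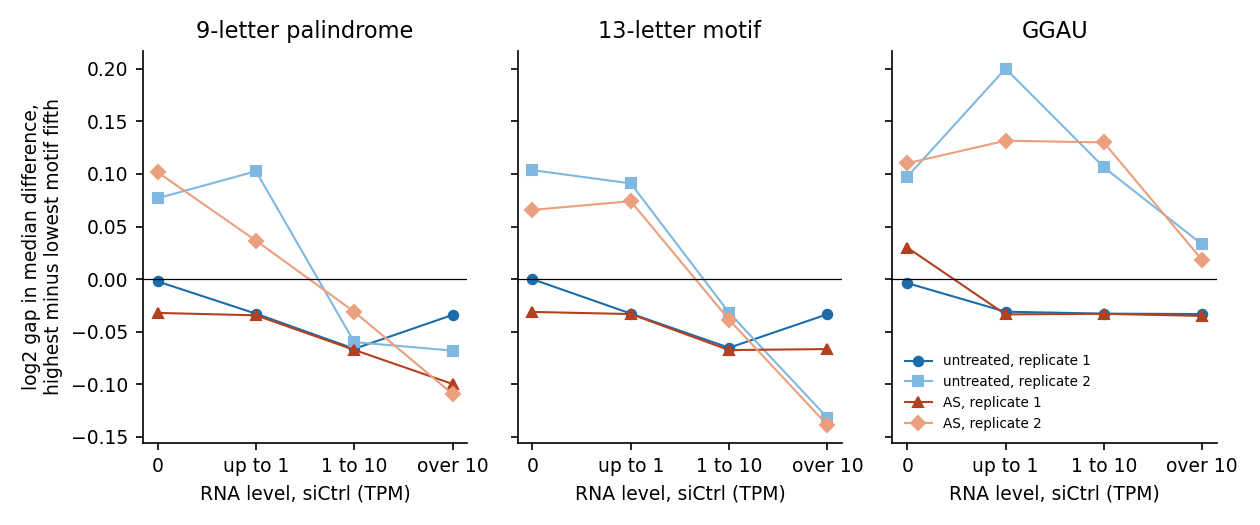
For each motif, the y axis gives the median log2 difference of the quintile of genes with most copies per kb minus that of the quintile with fewest, within 4 classes of RNA level in siCtrl cells on the x axis, with 1 line per pair. For the 9-letter palindrome and the 13-letter motif all 4 lines are below 0 in genes over 10 TPM and lie on both sides of 0 or near it in genes at 0 TPM, while for GGAU the replicate 2 pairs lie above the replicate 1 pairs.

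Gene lists are given by their counts and medians beside the same values over all genes tested, where the median of the mean difference was 0.021. Of all genes tested, 8.32% were higher with G3BP1 and 6.85% with G3BP2 in all 4 pairs, and 2.68% and 1.92% at an unadjusted p of 0.05. No member of any list was called. The 83 tested genes of cytosolic ribosomal proteins had a median log2 difference of -0.20, with pair medians of -0.19, -0.38, -0.13 and -0.53. At an unadjusted p of 0.05, 11 were higher with G3BP1 (13.3%, against 2.68% of all genes) and 1 with G3BP2, which was RPS9. RPS9 had an n of 32, 2, 34 and 44 with G3BP2 against 1, 0, 6 and 0 with G3BP1, and its span overlaps LILRA6 and LILRB3. The list had a median of 1283 TPM. Among genes over 100 TPM, the 76 ribosomal protein genes had a median of -0.26 and the 1037 other genes of -0.11, and 15.8% and 12.4% were higher with G3BP1 in all 4 pairs.

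Genes of other parts of the translation machinery lay on the same side by smaller values. Of 70 genes of translation initiation and elongation factors, 10 (14.3%) were higher with G3BP1 and 2 (2.86%) with G3BP2 in all 4 pairs, and their median was -0.094. EEF1D, a subunit of the exchange factor for elongation factor 1, at 4.15 (SE 2.01) and EIF4G2, an initiation factor, at -3.21 (SE 1.36) were the extremes, each with libraries listed at 0. Of 71 mitochondrial ribosomal protein genes, 11 (15.5%) were higher with G3BP1 in all pairs and 4 (5.63%), near the share of all genes, with G3BP2, with a median of -0.052 and with MRPL38 at -2.04 (SE 1.00) and MRPL49 at 1.85 (SE 0.944) as extremes. The 77 nuclear genes of oxidative phosphorylation, which were also abundant with a median of 119 TPM, had a median of 0.029, with 3 (3.9%) higher with G3BP1 and 4 (5.19%) with G3BP2 in all pairs. Their extremes were COX4I1 at -2.26 and NDUFB1 at 1.85, with SEs of 1.23 and 1.15. No gene encoded by mitochondrial DNA is in the table.

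Stress granule protein genes, 35 genes for the scaffolds and RNA-binding proteins of the condensate, had a median of -0.12, and 7 (20%, against 8.32% of all genes) were higher with G3BP1 and 1 (2.86%, against 6.85%) with G3BP2 in all 4 pairs. That 1 was PABPC1, the cytoplasmic poly(A)-binding protein, at 41, 421, 539 and 30.7 with G3BP1 and 117, 499, 605 and 111 with G3BP2 (log2 difference 0.93, SE 0.321, adjusted p = 0.780 by limma). The lowest member was EIF4A1, the helicase of cap-dependent initiation, at -0.86 (SE 0.909). The mRNAs of the paralogs themselves differed in no steady way. G3BP1 mRNA had 1941, 1498, 1593 and 1808 with its own protein and 1585, 723, 1667 and 3659 with G3BP2, and G3BP2 mRNA 4551, 3133, 3736 and 4240 with G3BP1 and 3549, 2340, 3732 and 5290 with its own protein. For both, G3BP1 was the higher protein in untreated pairs. Their log2 differences over 4 pairs were -0.07 (95% interval -0.79 to 0.66) and -0.12 (-0.42 to 0.19).

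Zinc finger genes of chromosome 19, a clustered family of transcriptional repressors, showed the steadiest small shift of the longer lists. The median of 244 genes was -0.074, with pair medians of -0.076, -0.12, -0.068 and -0.076, and 38 (15.6%) were higher with G3BP1 in all pairs and 15 (6.15%) with G3BP2, where all genes had 8.32% and 6.85%. At an unadjusted p of 0.05 the counts were 14 (5.74%) and 11 (4.51%), where all genes had 2.68% and 1.92%. The list had a median of 2.11 TPM. ZNF100 had an n of 18, 11, 12 and 20 with G3BP2 against 12, 0, 0 and 0 with G3BP1 and was the highest member, and ZNF676 was the lowest at -1.0 (SE 1.09). Of 53 clustered protocadherin genes, which encode neuronal adhesion proteins, 14 (26.4%, against 8.32% of all genes) were higher with G3BP1 in all pairs and 3 (5.66%, against 6.85%) with G3BP2, with a median of -0.086 and with 0 genes at an unadjusted p of 0.05. The protocadherin list had a median of 10.7 TPM. Genes of some protocadherin clusters share constant exons and overlap, so those are not independent of each other. The extremes of the list, PCDHB12 at 1.38 and PCDHB5 at -1.06, overlap no other gene in the table and had SEs of 0.74 and 0.979.

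Long neuronal genes lay closer to 0. Of 25 such genes, with a median scaled n of 19963 and 0.130 TPM, 7 (28.0%, against 6.85% of all genes) were higher with G3BP2 in all pairs and 2 (8%, against 8.32%) with G3BP1. The median was 0.042 and the pair medians were 0.040, 0.011, 0.032 and -0.013. DAB1, an adaptor of reelin signalling, was the highest at 0.084 (SE 0.0434) and LSAMP, an adhesion protein of limbic neurons, the lowest at -0.12 (SE 0.0578). Olfactory receptor and keratin-associated protein genes, which neuroblastoma cells hardly use, had medians of 0.13 and 0.32 over 327 and 50 genes, at a median scaled n of 4.73 and 1.72. In these genes the pair medians were on both sides of 0 or at 0, and single members rested on few units of n, such as OR4F17 at 2.47, OR4S1 at -1.82, KRTAP11-1 at 1.83 and KRTAP10-11 at -1.21. The 36 tested genes of replication-dependent histones, with a median scaled n of 3.08, had a median of -0.25 and pair medians from -0.65 to 0.21. H2BC1 at 1.61 and H2BC12 at -2.11 were their extremes.

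**Figure D5:**
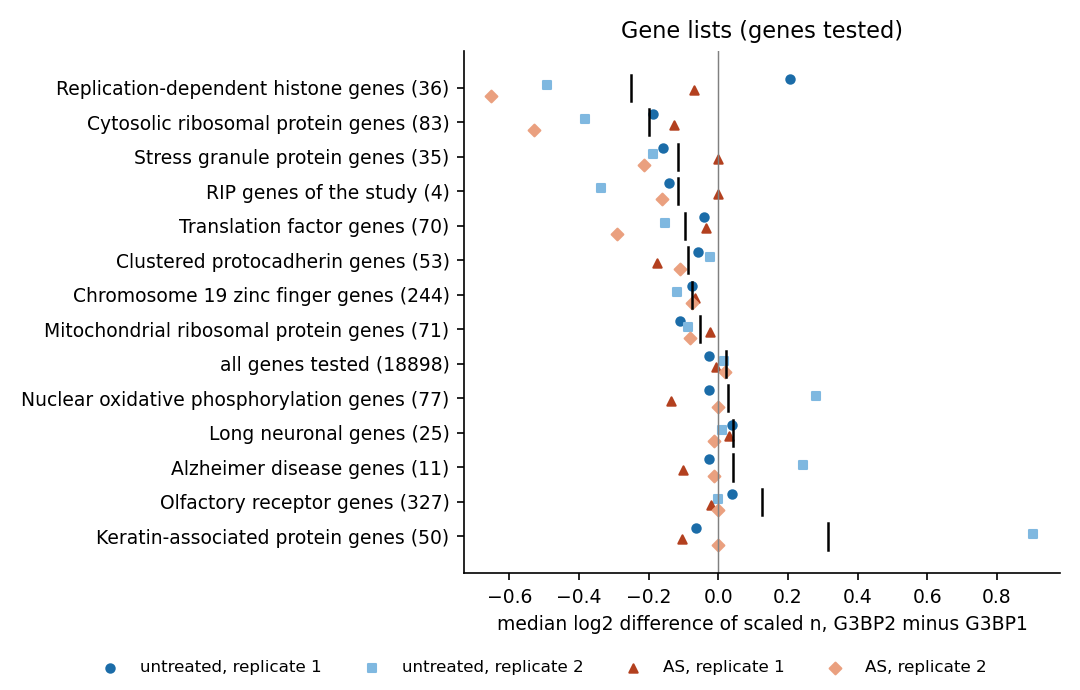
The x axis gives the median log2 difference of scaled n, G3BP2 minus G3BP1, over the tested genes of each list, with 1 point per pair and a bar at the median of the mean over 4 pairs. Cytosolic ribosomal protein genes and zinc finger genes of chromosome 19 lie below 0 in all 4 pairs. So do the lists of mitochondrial ribosomal protein, translation factor, stress granule protein and clustered protocadherin genes and the RIP genes of the study. Among the lists drawn, which have 4 or more tested genes, the pair medians of the histone and keratin-associated lists spread widest.

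Tested transcripts among those that the study measured individually had intervals that held equal scaled n, and some were too wide to tell. Whether equal n reflects equal binding was not tested, since no input library was used. SPTBN1, a spectrin of the membrane skeleton, had 1143, 1247, 1266 and 1113 with G3BP1 and 1000, 889, 1207 and 1079 with G3BP2, lower with G3BP2 in 4 of 4 pairs by -0.20 (SE 0.0969, adjusted p = 0.780 by limma). The kinase gene PRKCA and the transcription factor gene TCF4 both differed by -0.03, with intervals from -0.21 to 0.15. MIF, a cytokine, was listed at 0 in all 8 libraries although it was at 870 TPM. HMOX2, heme oxygenase 2, had an n of 26, 13, 0 and 26 with G3BP1 and 0, 0, 36 and 13 with G3BP2, and its interval of -5.04 to 1.95 allows large preferences either way. HTT, the huntingtin gene, differed by -0.07 (-0.22 to 0.09). EBPL, TPT1 and NGDN had differences of -0.15, -0.10 and 0.38, with intervals that hold 0.
Of 11 genes linked to Alzheimer's disease, 0 reached an unadjusted p of 0.05. APP, the amyloid precursor, differed by -0.03 (-0.18 to 0.11), the gamma-secretase subunit PSEN2 by 0.09 (-0.31 to 0.49), the alpha-secretase ADAM10 by 0.03 (-0.20 to 0.25) and the beta-secretase BACE1 by -0.15 (-0.52 to 0.22). MAPT, which encodes tau, had 198, 230, 241 and 92.2 with G3BP1 and 204, 184, 170 and 120 with G3BP2. The risk genes SORL1, PICALM, BIN1, CLU and APOE differed by 0.04, 0.08, 0.23, 0.47 and 1.07, and only the interval of SORL1 and that of PICALM lay within 1.5-fold among these 5. The spans of MIF, HMOX2, MAPT, G3BP1, G3BP2, PSEN2, BACE1, EIF4A1, DAB1, MRPL49, MRPL38, COX4I1, EEF1D, EIF4G2 and KRTAP10-11 overlap other protein-coding genes as well.

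Neither treatment alone gave a call. In untreated cells 0 genes passed the adjusted threshold of limma (smallest adjusted p 0.994), with 219 (1.16%) higher with G3BP2 and 234 (1.24%) with G3BP1 at an unadjusted p of 0.05. Under AS 0 passed (smallest adjusted p 0.317), with 324 (1.71%) and 320 (1.69%). These counts rest on the scaling and on 1 pair. Unscaled n gave 80 genes in untreated cells, 166 under AS and 18 for the change with AS, and leaving out the replicate 1 pair of AS gave 565 under AS and 158 for the change, with a lone AS pair assumed to vary like the untreated pairs. The difference between the proteins changed with AS in 0 genes, by the interaction term of limma, with 169 (0.894%) larger and 178 (0.942%) smaller under AS at an unadjusted p of 0.05. The half-width of its 95% interval had a median of 1.04 on the log2 scale, so that changes up to about 2-fold in the preference could not be seen in a typical gene. The opposite sign in both untreated and both AS pairs was seen in 10.1% of the genes, and the same sign in all 4 pairs in 15.2%.

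Listed at 0 in all 4 libraries of 1 protein and above 0 in all 4 of the other was 1 gene in each direction. Genes present in fewer libraries were not searched for this. KRT33A, a hair keratin gene, was at an n of 2 in each G3BP1 library and at 0 in each G3BP2 library. H2BC12L, a histone gene, had 3, 3, 2 and 1 with G3BP2 and 0 with G3BP1. With at most 2 units in all libraries of 1 protein and at least 3 in all of the other, 0 genes remained in either direction. At the edge of the filter, the 235 genes above 0 in 4 of 8 libraries were tested with a median scaled n of 1.85, and the 178 above 0 in 3 libraries were left out with 1.13.

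Classes by recruitment into SG cores, or by the response to losing either paralog, lay closer together than classes by RNA level. Classes came from RNA-seq with 1 library per condition, so they have no replicate check. Folds are ratios of TPM + 1, which moves genes at low TPM toward the middle class. Among genes with a mean scaled n of at least 20, the 7753 genes over 2-fold higher in SG cores than in lysate of AS-treated cells had a median difference of -0.016, the 903 under 0.5-fold one of -0.032 and the 3253 between them one of -0.0037, whereas the 4243 genes under 1 TPM in both had 0.084. Genes above 2-fold after siRNA against G3BP1 (124 genes), between the limits (10548) and below 0.5-fold (210) had medians of -0.026, -0.023 and -0.0073. After siRNA against G3BP2 they were 0.011, -0.023 and 0.0019 in 130, 10385 and 313 genes.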

How the data were processed

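In SH-SY5Y cells crosslinked with UV light, either protein was precipitated in duplicate from untreated and AS-treated cells. The methods name fastp for trimming and removal of duplicate molecules, STAR for alignment, CLIPper for peaks and a size-matched input for normalization. The authors deposited 1 log10 value per gene and library, and which of these steps it includes is not given in the sources used here. Of 41002 values under 1.5, 100% were log10 of whole numbers to 2 decimals. The authors also deposited TPM from RNA-seq (HISAT2 2.1.0 per the labels), which keep no depth. Input and rRNA-depleted libraries were not used here.

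The number n was scaled to the geometric mean of the 8 totals, and log2(scaled n + 1) was fitted with limma 3.58.1 (R 4.3.3) with an intensity trend and the pair as a block, over 18898 genes, with Benjamini-Hochberg adjustment at 0.05. Python 3.11.15, numpy 2.4.6, pandas 2.3.3 and scipy 1.17.1 served for the rest. Deviations of same-numbered libraries from their group means correlated at 0.52 in untreated cells and 0.38 under AS, and the numbers come from the labels. With both proteins replicate 1 was deeper than replicate 2, so these correlations cannot show whether same-numbered libraries were truly paired. The fit was tested on simulated data. By ID, 19910 rows matched GENCODE 44 on GRCh38, and 18 IDs stand in 2 rows each. Motifs were searched in gene spans, and quintiles of motif density used genes of at least 20 kb.

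Named genes were the 12 leading in each direction, genes the study names, members of lists of up to 12 genes and the extremes of longer lists. Some of these genes are not reported here. The comparison and its 15 lists were chosen with earlier results of these data known. KRT33A, H2BC12L, LILRA6, LILRB3, FAM98C, RIC8A and the cell type markers fall outside this rule. Alternatives covered the block, scaling, pseudocount, filter, trend, weights and left-out pairs.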

Additional observations from a re-analysis of the deposited data

Results flagged for a closer look

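The difference between the proteins had one sign in both untreated pairs and the other in both AS pairs for 2 of the 43 genes that the naming rule chose for other reasons than 1 sign in all 4 pairs. Of all 18898 genes tested, 10.1% had this pattern, so it was no more common among the named genes. The mRNA of G3BP1 was lower with G3BP2 in untreated cells (log2 difference -0.67) and higher under AS (0.54), a change of 1.21 with an unadjusted p of 0.0218 and an adjusted p of 0.992 by the interaction term of limma. SORL1, a sorting receptor linked to Alzheimer's disease, went from 0.13 to -0.040, a change of -0.17 with an adjusted p of 0.992 by the same term. Its pair differences were 0.0070 and 0.24 in untreated cells and -0.068 and -0.012 under AS.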

How the results depend on the processing

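The count of 0 genes over 4 pairs held under 14 of 14 alternatives, with smallest adjusted p values of limma between 0.187 and 0.999. The replicate block that joins the pairs changed no call: without it the counts were also 0, with 321, 140, 230 and 130 genes at an unadjusted p under 0.05 for the 4 pairs, untreated cells, AS and the change between treatments, against 868, 453, 644 and 347 with it. Unscaled n keeps the larger G3BP2 totals, moved the median difference of all tested genes from 0.021 to 0.46, and gave 80 genes in untreated cells (68 of them higher with G3BP2), 166 under AS (157 higher) and 18 for the change. Leaving out each pair in turn gave 0 to 565 genes under AS and 0 to 158 for the change. Both upper values came without the replicate 1 pair of AS, where the lone AS pair is assumed to vary like the untreated pairs. Over all alternatives, genes at an unadjusted p under 0.05 numbered 321 to 5037 over 4 pairs, 69 to 1184 in untreated cells, 150 to 3688 under AS and 84 to 2586 for the change, and genes with an interval within 2-fold 6989 to 16432, 1080 to 12883, 520 to 12296 and 0 to 9433. Of 334 values of the 24 leading genes under alternatives, 331 kept their direction. The other 3 came from unscaled n, with TRPV4 at 0.11, CCAR1 at 0.12 and SEC31A at 0.066. Of 583 values of the 43 other genes chosen by the naming rule, 31 changed sign, none of them called. Unscaled n put SPTBN1 at 0.26, PRKCA, TCF4 and APP at 0.42, HTT and G3BP1 at 0.39, MAPT at 0.35, G3BP2 and LSAMP at 0.34, TPT1 at 0.32, BACE1 at 0.31 and EBPL at 0.30. Weights per library, chosen after seeing the data, put NGDN at -0.14, PSEN2 at -0.043, SORL1 at -0.00091 and ZNF676 at 0.67, and gave 0 genes in each comparison. Leaving out each pair in turn gave ranges of -0.12 to 0.020 for PRKCA, -0.10 to 0.050 for TCF4, -0.55 to 0.32 for TPT1, -0.19 to 0.62 for NGDN, -0.26 to 0.032 for MAPT, -0.058 to 0.12 for ADAM10, -0.43 to 0.26 for G3BP1, -0.14 to 0.18 for PSEN2, -0.024 to 0.080 for SORL1, -1.56 to 0.25 for EIF4A1, -1.65 to 0.25 for PCDHB5 and -1.82 to 0.16 for ZNF676. The gap between genes over 100 TPM and at 0 TPM stayed between -0.21 and -0.13 under 12 alternatives, all added after seeing the data. The gap between the longest and shortest quintile was -0.11 by summed span and -0.066 by the longest transcript. Genes listed at 0 for 1 protein, 1 in each direction, became 0 and 0 with at most 2 units against at least 3. The cause of these changes was not tested. Of 200 genes simulated with equal spread in all libraries and a log2 change of 0.5 over 4 pairs, 0 were called. Of 200 with a change of 1, 60 were called.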
